A study of Arabidopsis thaliana with 8 samples.

Results

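Chromatin precipitated with an antibody to the Myc tag was compared directly between plants that carry Myc-tagged MBD7 and plants without a Myc tag, in seedlings of Arabidopsis thaliana 14 days old. The comparison used 4 of the 8 libraries of the study, namely 2 of Myc ChIP from each kind of plant, and no input library entered the test. The tagged plants, named MBD7-5 in the sample titles, were transgenic for genomic MBD7 under the MBD7 promoter with 4 Myc tags, here called MBD7 ChIP. The untagged plants were given as WT, with 35S-SUC2 in their titles, here called WT ChIP. The labels do not give the state of the endogenous MBD7 gene in the tagged plants, and only 1 transgenic line was used. Both kinds of plant grew at 23 °C under 16 h of light, and 3 g of seedlings were fixed in 1% formaldehyde for a precipitation. By their labels the untagged precipitations used an Invitrogen antibody to Myc and the tagged ones a Millipore antibody to Myc, although the protocol text names the former alone. Genotype and antibody cannot be told apart in any result given here. The labels do not say whether replicates came from separate plantings, so that p-values cover the spread of these libraries alone and that spread may be technical.

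MBD7 belongs to the methyl-CpG-binding domain family of proteins, named for the recognition of cytosines methylated in the CG context. In Arabidopsis such methylation is dense in transposable elements, which crowd around the centromeres and in the knob of the chromosome 4 short arm, and many active genes carry it within their bodies. MBD7 has been described as a partner of the IDM proteins, which assist the DNA glycosylase ROS1 in removing methylation. A ChIP from plants without the tag measures where DNA is recovered without any Myc-tagged protein.

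Precipitated DNA was counted in overlapping windows, 1000 bp long with a step of 500 bp. The 1914 windows whose summed input exceeded 10 times the median are called copy-rich, since many genomic copies can pile up there. They took 74.4% and 72.2% of the counts of the MBD7 ChIP libraries and 77.8% and 76.1% of those of WT ChIP, against 32.9% to 42.7% in the 4 inputs. The untagged libraries were the shallow ones. MBD7 ChIP held 25846940 and 23761267 window counts, with medians of 12 and 13 per window, whereas WT ChIP held 7450486 and 4971029, with medians of 4 and 3. Across bins of 10 kb the MBD7 ChIP libraries correlated with each other at r = 0.986 and the WT ChIP libraries at r = 0.933, while the 4 pairs of 1 MBD7 ChIP and 1 WT ChIP library lay between r = 0.910 and r = 0.933. Pairs of 1 ChIP and 1 input library lay between r = 0.841 and r = 0.912, so that much of this likeness was also present between ChIP and input. Copy-rich bins and depth are included in these values, and WT ChIP replicates were no more alike than the most similar tagged and untagged libraries.

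MBD7 ChIP held a larger share of its counts outside copy-rich windows in the pericentromeres than WT ChIP did. Outside copy-rich windows, the pericentromeres, taken as fixed stretches of 6 to 7 Mb on each chromosome, held 64.3% and 61.0% of the counts in MBD7 ChIP and 55.4% and 51.8% in WT ChIP. They made up 27.7% of all windows and held 35.8% (± 0.0586, SD, n = 2) of the counts of MBD7 input and 38.5% (± 0.0032, SD, n = 2) of those of WT input. WT ChIP thus already stood above its input there, and the tagged libraries stood above WT ChIP without overlap. The mean share in MBD7 ChIP was 1.17 times that in WT ChIP, with an exact two-sided permutation p of 0.333, the smallest that 2 libraries against 2 can give. The arms held 35.7% and 39.0% in MBD7 ChIP against 44.6% and 48.2% in WT ChIP. Counting intervals of these shares (95%, Clopper-Pearson) were at most 0.254 percentage points wide and cover counting error only.

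The chromosomes did not all show the shift outside copy-rich windows alike. The shares per chromosome also leave out the knob of chromosome 4 and the mitochondrial insertion of chromosome 2, both described below. Ratios with these parts included were not computed. The pericentromere of chromosome 2 took 9.89% and 9.53% of the counts in MBD7 ChIP and 7.80% and 7.46% in WT ChIP. This gave the highest ratio of the 5, at 1.27. On chromosomes 3, 4 and 5 the ratios were 1.22, 1.18 and 1.17, and again both tagged libraries lay above both untagged ones. On chromosome 1 the shares overlapped, at 14.3% and 13.5% in MBD7 ChIP and 13.6% and 12.7% in WT ChIP, with a ratio of 1.06 and an exact permutation p of 0.667. The differences between chromosomes were not tested.

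Windows of pseudogenes, a class that in the RefSeq annotation includes the transposable element genes, carried the shift both inside and outside the pericentromeres. Such windows overlap a pseudogene or a transcribed pseudogene and no protein-coding gene. Pseudogene windows of the pericentromeres made up 9.54% of the windows that are not copy-rich. They held 36.1% and 33.8% of the counts of MBD7 ChIP and 26.1% and 24.1% of those of WT ChIP, a ratio of 1.39. Pseudogene windows of the arms made up 1.80% of these windows, with 4.20% of the counts in each MBD7 ChIP library and 2.80% and 2.92% in WT ChIP, a ratio of 1.47. In WT ChIP the latter share lay at the level of the inputs, which were at 3.01% and 3.04% in the group means. Arm windows with protein-coding genes went the other way, from 36.2% and 39.5% in WT ChIP to 27.2% and 30.2% in MBD7 ChIP, a ratio of 0.759. None of these groups of libraries overlapped, and each exact permutation p was 0.333. These shares do not depend on how libraries are scaled to each other.

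**Figure D1:**
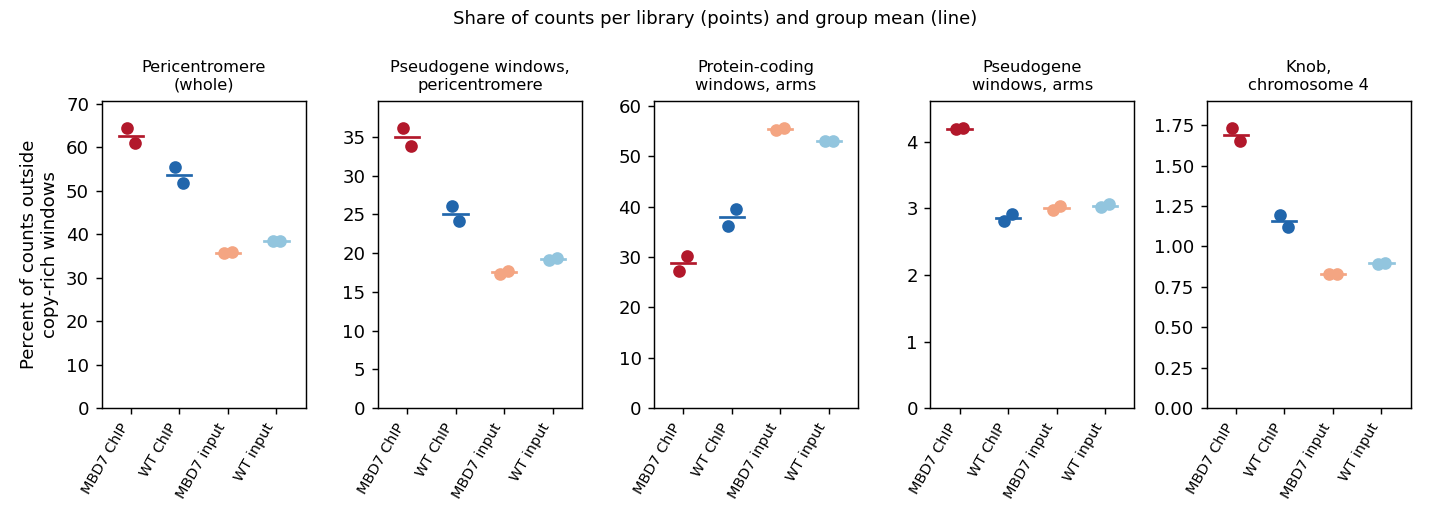
Each panel gives the percent of a library's counts outside copy-rich windows that fell in one region or class, with 1 point for each library and a line at the mean of each group (n = 2). In the first panel the 2 MBD7 ChIP libraries stand at 64.3% and 61.0%, the 2 WT ChIP libraries at 55.4% and 51.8%, and the 4 inputs below both; in the arms the pseudogene windows of WT ChIP lie near the inputs.

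To bring up the counts of the shallow WT ChIP libraries, windows that do not overlap were summed to bins of 10 kb and tested with edgeR's quasi-likelihood test on the 4 ChIP libraries, with Benjamini-Hochberg adjustment at 0.05 over all bins. Of 11905 bins tested, out of 11916, 1119 were higher in MBD7 ChIP (9.4%) and 348 were lower (2.92%). In all 1119 higher bins both tagged libraries lay above both untagged ones, and in 342 of the 348 lower bins both lay below. The same held upward in 2032 and downward in 3110 of the 10438 bins that did not pass. Lack of overlap was thus common without a call. With DESeq2's Wald test 1019 bins were higher and 67 lower (0.563%). The counts also moved with the libraries used. Without MBD7 ChIP replicate 1, 449 bins passed as higher and 46 as lower, without MBD7 ChIP replicate 2, 197 and 1 passed, without WT ChIP replicate 1, 1160 and 403 passed, and without WT ChIP replicate 2, 649 passed as higher. In bins of 5 kb, 6.96% were higher and 1.98% lower, and in bins of 50 kb, 21.9% were higher and 10.6% lower. The WT ChIP replicates differed by over 2-fold in 15 of the 348 lower bins (4.31%), in 11 of the 1119 higher bins (0.983%) and in 348 of the 10438 bins that did not pass (3.33%). Between the MBD7 ChIP replicates no called bin and 19 of the bins that did not pass differed that much.

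The higher bins lay mostly around the centromeres, and the lower bins mostly in the arms. In the pericentromeres 876 of 3289 bins were higher (26.6%) and 43 lower, and the median log2 difference between MBD7 ChIP and WT ChIP was 0.37. In the arms 243 of 8616 bins were higher (2.82%) and 305 lower (3.54%), with a median of -0.16, beside a median of -0.07 over all bins. When each tagged library was set against each untagged library, the median over pericentromere bins ran from 0.25 to 0.52 and that over arm bins from -0.17 to -0.10, so the sign was the same in all 4 pairs. The difference between the inputs of the plants went the opposite way and was smaller, with medians of -0.06 in the pericentromeres and 0.07 in the arms (log2, MBD7 input minus WT input). By chromosome the median over pericentromere bins was 0.29 on chromosome 1, 0.44 on 2, 0.40 on 3, 0.34 on 4 and 0.34 on 5, where the bins of the knob and of the insertion described below are left out. On chromosome 1, whose pericentromere share overlapped between the groups, the median of these bins was thus above 0 as well.

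The difference between tagged and untagged ChIP was largest inside the pericentromeres and lower farther out. In the innermost bins, 3 to 4 Mb inside the border, the median log2 difference was 0.44 and 81 of 289 bins were higher (28.0%). Bins 2 to 3 Mb inside the border of the pericentromere had a median of 0.50, the highest of the steps, and 359 of 1000 were higher (35.9%). In the last 0.5 Mb before the border the median was 0.05 with 63 of 500 higher (12.6%), and in the first 0.5 Mb outside it was -0.08 with 27 of 500 higher (5.4%). From 8 Mb outwards the median was -0.22, where 23 of 2170 bins were higher (1.06%) and 99 lower. The border drawn on the map thus sits where the difference had already come down, and single bins well above 0 went on far out into the arms.

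**Figure D2:**
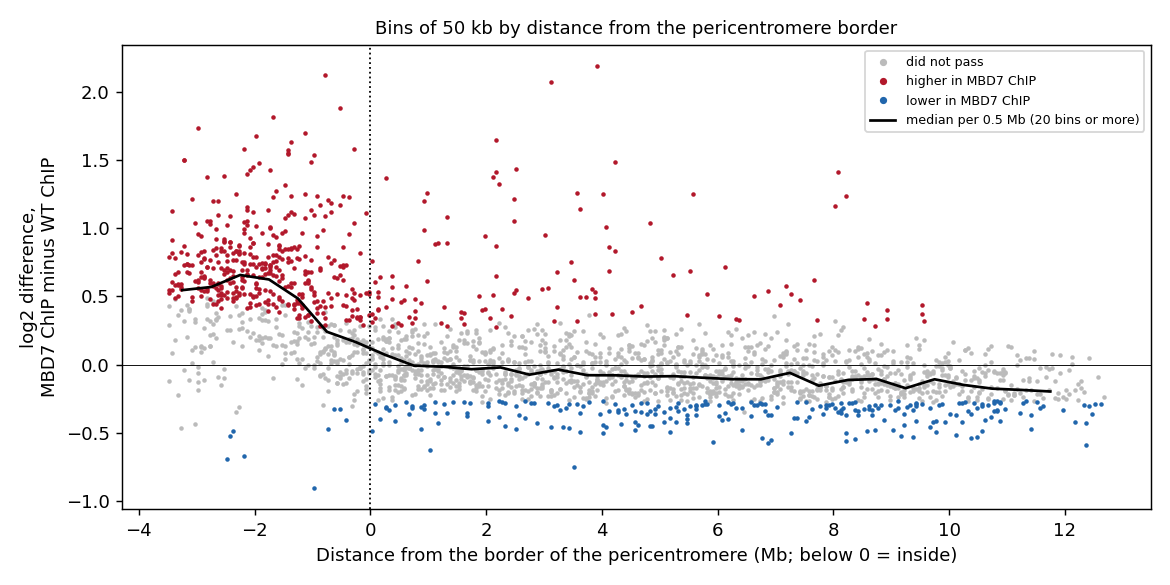
The log2 difference between MBD7 ChIP and WT ChIP is plotted for bins of 50 kb against the distance of the bin from the nearest border of the pericentromere (Mb, below 0 is inside), with colours for bins that passed edgeR's test and a line for the median. Higher bins fill the inside, where the medians of 10 kb bins reach 0.50, and scattered higher bins continue in the arms above a median below 0.

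Bins called higher formed 665 runs of touching bins, of which 252 held more than 1 bin, and the longest run, of 110 kb, ran from 12410001 to 12520000 on chromosome 3 with a mean log2 difference of 1.04. A run of 90 kb from 11030001 to 11120000 on chromosome 4 lay in the arm, with a mean of 1.12. Lower bins formed 319 runs, of which 22 held more than 1 bin. The longest lower run, of 70 kb, from 3430001 to 3500000 on chromosome 2, lay in the copy of the mitochondrial genome that is inserted beside that centromere.

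The knob of chromosome 4, an island of transposon-rich heterochromatin in the short arm, stood above the pericentromeres as a whole in its median. Of its 70 bins 34 were higher (48.6%) and 1 lower, and the median log2 difference was 0.61. Its share of the counts outside copy-rich windows was 1.73% and 1.65% in MBD7 ChIP against 1.2% and 1.12% in WT ChIP. The ratio was 1.46, with an exact permutation p of 0.333. Whether the knob differs from the other pericentromeric bins was not tested. The mitochondrial insertion on chromosome 2 went against its surroundings, with 5 of 40 bins higher and 11 lower (27.5%) and a median of -0.37. It held 0.525% and 0.545% of the counts in MBD7 ChIP and 0.608% and 0.642% in WT ChIP, outside copy-rich windows. In the inputs the insertion was higher in MBD7 plants, with a median log2 difference of 0.51, and reads of the mitochondrial genome itself can be counted there. The part of that in the result was not tested.

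**Figure D3:**
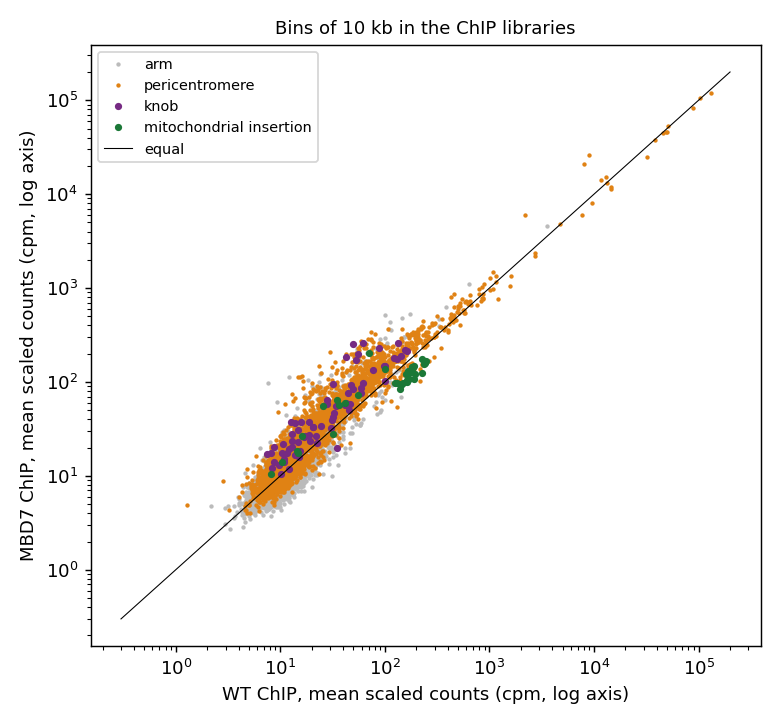
Mean scaled counts (cpm, log axes) of WT ChIP are plotted against those of MBD7 ChIP, with 1 point for each bin of 10 kb that is above 0 in both and colours for the region, and a line where both are equal. Pericentromere and knob bins lie mostly above the line, with medians of 0.37 and 0.61 on the log2 scale, arm bins spread around and below it, and copy-rich bins at the upper right lie near it.

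In the pericentromeres and in the arms, higher bins were more frequent where pseudogenes are annotated. Unlike in the window shares above, transcribed pseudogenes were not counted here. In the arms 8048 bins overlapped no pseudogene, of which 107 were higher (1.33%) and 299 lower (3.72%), with a median log2 difference of -0.17. Of 482 arm bins with exactly 1 pseudogene, 96 were higher (19.9%), and of 86 with more, 40 were higher (46.5%), with medians of 0.09 and 0.57. In the pericentromeres the higher bins were 70 of 1192 without a pseudogene (5.87%), 251 of 857 with 1 (29.3%) and 555 of 1240 with more (44.8%), with medians of 0.03, 0.41 and 0.56. Arm bins with more than 1 pseudogene therefore had about the values of pericentromere bins with more than 1, and pericentromere bins without any lay close to 0.

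Summed over genes, the same contrast appeared. Of 33195 nuclear genes tested, out of 37899, 1923 were higher in MBD7 ChIP (5.79%) and 350 lower (1.05%) by edgeR's quasi-likelihood test with adjustment over all genes. DESeq2's Wald test gave 1336 higher and 79 lower. Without MBD7 ChIP replicate 1, 888 genes passed as higher and 74 as lower, without MBD7 ChIP replicate 2, 1418 and 153, and without WT ChIP replicate 2, 1246 passed as higher. Pseudogenes gave 1346 higher and 8 lower of 3819 tested, out of 3917 (35.2% higher), with a median log2 difference of 0.66 beside -0.05 over all genes. Their median was 0.53 in the arms, where 172 of 518 were higher (33.2%), and 0.67 in the pericentromeres, where 1174 of 3301 were higher (35.6%). Protein-coding genes gave 429 higher (1.67%) and 282 lower of 25722, with a median of -0.12. Even in the pericentromeres protein-coding genes had a median of 0.10 and 198 of 3612 were higher (5.48%). Transcribed pseudogenes, a separate class of the annotation, lay between, with 62 of 747 higher (8.3%) and a median of 0.07.

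Longer pseudogenes were called more often. In the arms, of those over 5 kb 24 of 38 were higher (63.2%), with a median log2 difference of 1.09. From 2 to 5 kb 95 of 236 were higher (40.3%) with a median of 0.66, and under 0.5 kb 4 of 43 were higher (9.3%) with a median of 0.03. A longer element has more counts, so that the share that passed also follows depth, and short elements share their 1 kb windows with their neighbours. In the pericentromeres 20.4% of those under 0.5 kb were higher, 41.7% of those from 2 to 5 kb and 50.7% of those over 5 kb, with medians from 0.60 under 0.5 kb to 0.74 over 5 kb.

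Around arm pseudogenes of at least 1 kb the difference was broad, while the level itself fell sharply at the edge. Averaged over 365 such pseudogenes, windows centred 750 bp inside the edge had 3.61 and 3.47 scaled counts (cpm, after TMM scaling to the size of the library) in MBD7 ChIP and 2.13 and 2.07 in WT ChIP. Windows 750 bp outside had 1.86 in each MBD7 ChIP library against 1.19 and 1.18 in WT ChIP. Both kinds of library thus peaked over these elements. The ratio of tagged to untagged fell from 1.80 at 1750 bp inside to 1.57 at 750 bp outside and 1.35 at 4750 bp outside, still above 1. Around 20256 protein-coding genes of the arms the ratio was 0.940 at 1750 bp inside, 0.796 at 250 bp inside and 0.861 at 4750 bp outside, and MBD7 ChIP lay below WT ChIP in every library pair.

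**Figure D4:**
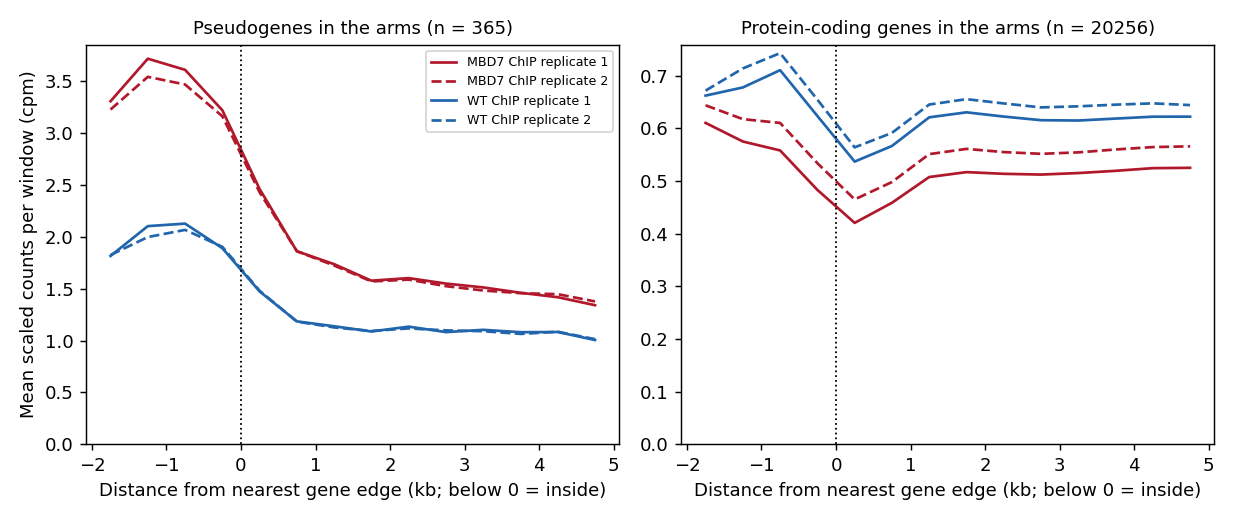
Mean scaled counts per window (cpm) are drawn against the distance from the nearest gene edge (kb, below 0 is inside) for arm genes of at least 1 kb, with 1 line for each ChIP library. Over 365 pseudogenes both MBD7 ChIP libraries stay above both WT ChIP libraries at every distance, and over 20256 protein-coding genes both stay below.

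At the level of single windows the depth of WT ChIP set the limit. Of 238296 windows, 4720 (1.98%) had 0 counts in both WT ChIP libraries and 42010 (17.6%) had 1 to 3. The filter on low counts kept 102883 windows, of which 5018 were higher (4.88%) and 1268 lower (1.23%). Leaving out MBD7 ChIP replicate 1 gave 2722 higher and 709 lower windows, and leaving out MBD7 ChIP replicate 2 gave 3091 higher. With the tagged libraries thinned to the untagged depth, the filter kept 28211 windows, of which 2307 were higher and 1943 lower. The split between directions thus moved, though over fewer windows. DESeq2's Wald test gave 2854 higher and 313 lower, and a 1.5-fold threshold 2130 and 226. A fit with all 8 libraries gave 13475 higher, of 232963 tested. Only 24 of the 4720 windows at 0 were tested, and all 24 were called, as they had to be, having passed the filter only through their tagged counts. They are given as bounds below. Windows of 1000 bp overlap by 500 bp, so that 1 site is usually counted in 2 windows.

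The windows with the largest difference, among those with at least 5 counts in each WT ChIP library, were sites of 157 to 771 counts in each tagged library. The first, from 1962501 to 1963500 on chromosome 3, overlaps AT3G00210, annotated as an RNA gene in the arm. It held 443 and 439 counts in MBD7 ChIP and 9 and 5 in WT ChIP, or 17.6 and 17.1 against 1.32 and 0.972 cpm, a log2 difference of 3.89 ± 0.28 (SE, edgeR adjusted p = 0.00013). Its input was 0.48 higher (log2) in the tagged plants, far less than the ChIP difference. Next was the pseudogene AT1G20390, whose window from 7067501 to 7068500 in the arm of chromosome 1 held 326 and 325 against 5 and 8 counts, a difference of 3.54 ± 0.31 (SE). The window of AT3G42060, a protein-coding gene in the pericentromere of chromosome 3, held 771 and 531 against 5 and 23 counts, at 3.41 ± 0.44 (SE), and the WT ChIP replicates differed there more than in the others.

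Windows were named only where the groups did not overlap, and the remaining 9 of these 12 had log2 differences of 2.96 to 3.17. Of these, 6 lay in pseudogenes alone. The pseudogene AT2G15410 on chromosome 2 had 205 and 181 against 5 and 5 counts in one window and 263 and 203 against 9 and 5 in another, and its neighbour AT2G15420 had 167 and 171 against 5 and 5. AT1G34590 had 264 and 261 against 7 and 7 counts, and AT5G38192 had 436 and 438 against 16 and 8. AT2G14380 had 223 and 212 against 6 and 7, and AT4G03760, in the knob, had 213 and 187 against 5 and 7. In the arms, the window shared by AT3G22125 and AT3G22142 had 157 and 219 against 5 and 6 counts. A window shared by the pseudogene AT4G16910 and by AT4G16900, part of the RPP5 cluster of immune receptor genes, had 224 and 274 against 10 and 5. All 12 stayed past the threshold with each library left out in turn.

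**Figure D5:**
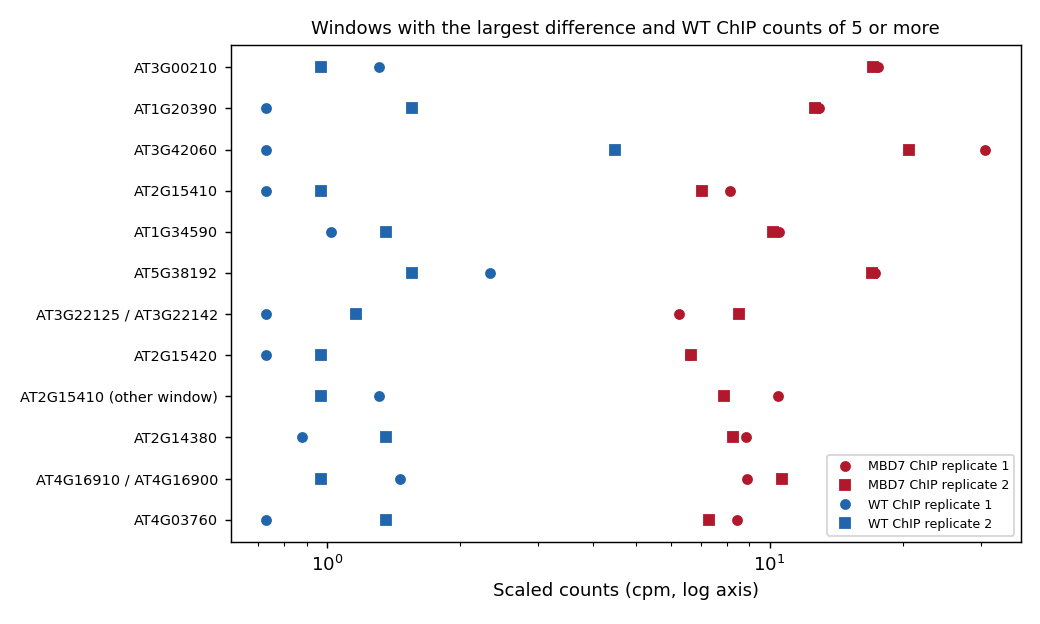
Scaled counts (cpm, log axis) are shown in each ChIP library for the 12 windows with the largest log2 difference and at least 5 counts in each WT ChIP library, with the names of the genes that overlap them. In each window both MBD7 ChIP points lie at 6.23 cpm or more and both WT ChIP points at 4.47 cpm or less. Lack of overlap between the groups was a condition of the choice.

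For windows at 0 in both WT ChIP libraries, a floor of 3 counts in each library was used, and the 24 tested gave bounds with a median of at least 1.77-fold. The highest bound fell in AT1G69550, which encodes a TIR-NBS-LRR immune receptor, in the arm of chromosome 1 from 26149501 to 26150500. It held 85 and 95 counts in MBD7 ChIP and was at least 6.93-fold higher there. Both inputs of the untagged plants held DNA of that window, with 430 and 214 counts against 223 and 110 in the tagged plants. AT1G20400, the neighbour of AT1G20390, had 42 and 44 counts in a window and was at least 3.31-fold higher. An intergenic window of chromosome 3 from 6992001 to 6993000 had 53 and 31 counts and was at least 3.24-fold higher, while its input had only 19 and 2 counts in tagged plants and 38 and 30 in untagged ones. AT3G13370 was at least 2.69-fold higher, AT1G09905 at least 2.55-fold and ty2, a thioredoxin gene, at least 2.50-fold. Such bounds say nothing of how much larger the difference was. The calls in AT1G20400, AT3G13370 and ty2 were each lost without at least 1 of the MBD7 ChIP libraries, and that in AT1G09905 at a threshold of 1.5-fold.

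Fewer windows were lower with the tag, and the lowest were places where the untagged ChIP had a count of its own. The lowest window overlaps NRPD1B (NRPE1, the largest subunit of RNA polymerase V, which acts in RNA-directed DNA methylation) and AT2G40050, from 16723501 to 16724500 on chromosome 2. It held 11 and 10 counts in MBD7 ChIP and 51 and 44 in WT ChIP, or 0.437 and 0.390 against 7.45 and 8.56 cpm, a log2 difference of -4.24 ± 0.30 (SE, edgeR adjusted p = 0.00013). The window of VPS60.2, an ESCRT component of membrane traffic, on chromosome 5 from 1409001 to 1410000, held 22 and 30 against 75 and 57 counts, a difference of -3.42 ± 0.25 (SE). In both windows the WT ChIP replicates lay close together after scaling. An intergenic window at the far end of the knob, from 2296501 to 2297500 on chromosome 4, held 13 and 14 counts against 17 and 77, so that most of its WT ChIP counts came from 1 library. UMAMIT38, of a family of amino acid transporters, had 4 and 5 counts against 6 and 17.

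The other 4 of the 8 lowest windows held 1 to 3 counts in each MBD7 ChIP library and are given as ratios of summed counts at equal depth with 95% counting intervals. That of AT3G61950 was 0.0707 (0.0232 to 0.183), and that of the window shared by AT1G78780 and AT1G78790 was 0.0857 (0.0199 to 0.289). An intergenic window of chromosome 5 from 23857501 had 0.0673 (0.0161 to 0.214), and one of chromosome 4 from 1595001 had 0.0842 (0.0237 to 0.247). These windows were chosen as among the lowest called, and the intervals cover counting error only. Without either MBD7 ChIP library 3 of the 4 calls were lost, and the window of AT1G78780 and AT1G78790 fell under the filter on low counts whenever a library was left out. The call of UMAMIT38 was lost without WT ChIP replicate 2.

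The bins of 10 kb with the largest difference repeated several of the sites above at a scale where WT ChIP had 21 counts or more. The highest, from 7070001 to 7080000 on chromosome 1, covers AT1G20390 and AT1G20400 to AT1G20410 and held 1214 and 1149 counts in MBD7 ChIP and 27 and 21 in WT ChIP. Its log2 difference was 3.69 ± 0.24 (SE, edgeR adjusted p = 4.5e-11), and its inputs differed by 0.13. Of the other 9 highest bins 7 lay in pericentromeres and 2 in the arms, with differences of 2.41 to 2.93. One of the arm bins covers AT1G51172 and the pseudogene AT1G51175 on chromosome 1 and held 768 and 694 against 34 and 25 counts. Another covers MBD7 itself and is described below with the gene. The tenth holds ATMIN7, a guanine nucleotide exchange factor of vesicle traffic in immunity, and a pseudogene, with 705 and 717 against 38 and 32 counts. Apart from the MBD7 bin, the input differences of these 10 bins lay between -0.16 and 0.13 on the log2 scale.

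The 6 lowest bins all lay in the arms, held no pseudogene and had smaller differences, from -1.64 to -1.25. The lowest, from 1400001 to 1410000 on chromosome 5, includes VPS60.2 and OFP13, an OVATE family gene, and held 118 and 122 counts in MBD7 ChIP and 106 and 89 in WT ChIP, or 10.1 and 9.83 against 29.7 and 32.4 cpm. The bin of RAP2.11, an ERF transcription factor gene, held 16.1 and 18.5 against 41.5 and 42.2 cpm, and that of AT2G20100 held 5.80 and 7.98 against 18.5 and 15.3. In these the replicates were close. In the others 1 WT ChIP library stood out. The bin of WAG1, a protein kinase gene of auxin transport, had 8.97 and 31.3 cpm in WT ChIP, that of AT1G51310 had 22.4 and 48.7, and that of AT5G02660 had 71.7 and 21.1. Without MBD7 ChIP replicate 2 the calls in all 6 were lost. The WAG1 call was also lost without WT ChIP replicate 2, and the AT5G02660 call without WT ChIP replicate 1, where its difference was -0.09, and both also with DESeq2's Wald test.

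Summed over whole genes, AT1G20390 had the largest difference, with 1752 and 1657 counts in MBD7 ChIP and 28 and 27 in WT ChIP, a log2 difference of 4.05 ± 0.27 (SE, edgeR adjusted p = 9.1e-12). Among the 10 highest genes 6 were pseudogenes, and 8 lay in pericentromeres. The pseudogenes AT1G34590, AT5G27895, AT3G42057, AT2G15410 and AT5G38192 had differences of 3.82, 3.38, 3.17, 3.04 and 3.03. The protein-coding genes AT1G20400, AT3G42060, AT5G38190 and AT1G32010 had differences of 3.69, 3.49, 3.17 and 3.02. Genes were named only where the groups did not overlap. The WT ChIP counts of AT5G38192 were 145 and 41, the widest gap between replicates among these 10. By rule, neighbours that share a window were named once. AT1G20390 and AT1G20400 still overlap the same bin of 10 kb, as do AT5G38190 and AT5G38192, and such pairs need not be separate sites. The same may hold for AT3G42057 and AT3G42060. On the low side VPS60.2 had 47 and 52 counts against 80 and 64, a difference of -2.44 ± 0.24 (SE). The long non-coding RNA gene AT1G09067 had 14 and 15 against 17 and 17, at -2.12. AT1G02965, AT4G05810, AT5G09245 and AT5G14480 completed the 6 lowest, at -2.3, -2.17, -2.02 and -1.99, and each lost its call without 1 of the WT ChIP libraries. The calls in AT1G02965 and AT5G14480 were also lost with DESeq2's Wald test. That in AT5G09245 was also lost when MBD7 ChIP replicate 1 or MBD7 ChIP replicate 2 was left out.

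The transgene loci were the only list in which every gene rose. MBD7 held 673 and 700 counts in MBD7 ChIP and 28 and 30 in WT ChIP, or 58.5 and 56.6 against 7.76 and 10.8 cpm, a log2 difference of 2.65 ± 0.25 (SE, edgeR adjusted p = 9.5e-09). The tagged plants carry extra MBD7 DNA, and their input was higher over the gene by 2.96 on the log2 scale, and the ChIP difference was no larger than that of the input. The rise began within the gene and ran on past it. The window from 24093501 to 24094500 held 3 and 5 counts in MBD7 ChIP and 0 in each WT ChIP library, that from 24095001 to 24096000 held 325 and 369 against 12 and 15, and that from 24097501 to 24098500, in the neighbouring subtilase gene SBT5.4, held 269 and 358 against 11 and 11. In the same last window the inputs were 729 and 550 in tagged and 111 and 78 in untagged plants.

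SUC2 encodes the sucrose transporter of the phloem, and 35S-SUC2 is named in the titles of the untagged plants only. It held 429 and 441 counts in MBD7 ChIP and 38 and 46 in WT ChIP, or 37.3 and 35.7 against 10.5 and 16.5 cpm, a log2 difference of 1.45 ± 0.24 (SE, edgeR adjusted p = 8.3e-05). The labels do not say whether the tagged plants carry that construct too. Unlike at MBD7, the inputs differed by only 0.08 over the gene. Both inputs were raised over it and ended at its edge. The window from 8032001 to 8033000 held 301 and 219 input counts in tagged and 269 and 280 in untagged plants, and the next window beyond the gene, from 8033501, held 15 and 9 against 13 and 7. The first window that touches the gene, from 8030001, also overlaps the neighbour AT1G22700. Its input counts were only 44 and 31 in tagged and 31 and 41 in untagged plants. The ChIP difference there was -0.13 and did not pass. From 8032501 to 8033500, within the gene, it was 1.82 ± 0.30 (SE).

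The machinery of methylation showed few differences, with 1 call or none in each list beside 5.79% higher and 1.05% lower among all genes tested, and counts this small are no result about these genes. Every call in it but those of the transgene loci was lost without at least 1 library. All list members were examined, and counts below are over all of them. Of the other genes of the methyl-CpG-binding domain family 1 of 11 tested was higher and 0 lower, with a median log2 difference of -0.28. MBD2 had 74 and 95 counts against 12 and 7, at 1.25 ± 0.34 (SE, edgeR adjusted p = 0.019). It lies in the pericentromere of chromosome 5, and the call was lost without MBD7 ChIP replicate 2 or WT ChIP replicate 2, and when libraries were scaled by their size alone. MBD1 and MBD4 did not pass, at -0.85 and -0.64. MBD3 had too few counts to be tested.

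Among 12 genes of active demethylation, 1 was lower and none higher, with a median of 0.06. DML2, a DNA glycosylase like ROS1, had 74 and 69 counts against 39 and 29, at -0.82 ± 0.26 (SE, edgeR adjusted p = 0.045), a call that was lost when any 1 library was left out and in 9 of the 13 alternatives in all, among them scaling by library size alone, DESeq2's Wald test and thinning of the tagged libraries. ROS1, the main glycosylase of vegetative tissue, and DME, its relative of the female gametophyte, did not pass, at 0.15 (95% interval -0.36 to 0.66) and 0.22 (-0.28 to 0.72). Of 13 genes of maintenance methylation and heterochromatin 1 was higher, with a median of 0.11. SUVH5, a histone H3 lysine 9 methyltransferase, had 122 and 132 counts against 12 and 19, at 1.12 ± 0.30 (SE, adjusted p = 0.016). MET1, which maintains CG methylation, and the chromomethylase CMT2 did not pass, at -0.27 and 0.36. Of 15 genes of RNA-directed DNA methylation 1 was higher, with a median of 0.11. NRPD1, the RNA polymerase IV subunit that holds its catalytic centre, had 217 and 248 counts against 32 and 35, at 0.88 ± 0.25 (SE, adjusted p = 0.024). NRPE1 and NRPD2 did not pass, at -0.43 (-0.88 to 0.03) and 0.21, although 1 window of NRPE1 was the lowest of all. The SUVH5 and NRPD1 calls were lost without either MBD7 ChIP library and without WT ChIP replicate 1. They were also lost with library size alone, with DESeq2's Wald test and with thinning.

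Methylated reporter loci and mobile elements had the highest median of the lists outside the transgene loci, at 0.49 over 16 members. Of these 1 was higher and 0 lower, near the 5.79% higher among all genes, so that the count is no result about the list. EVADE, a Copia retrotransposon that becomes mobile when methylation is lost, had 254 and 230 counts against 29 and 35, at 1.01 ± 0.26 (SE, edgeR adjusted p = 0.010), a call that was lost without MBD7 ChIP replicate 1 or WT ChIP replicate 1. The 8 copies of ONSEN, the heat-activated Copia retrotransposon, make up the middle of this list. ONSEN-1 held 810 and 847 counts against 158 and 141, at 0.56 ± 0.21 (SE, edgeR adjusted p = 0.12). The copies had differences of 0.47 to 0.57 with edgeR adjusted p of 0.11 to 0.23, and none passed here. ONSEN-1 did pass when all 8 libraries entered the fit, and when the replicate number entered it as a block. The copies are nearly identical in sequence, so that reads can be shared between them and their values are not separate measurements. FWA and SDC, genes silenced by methylation of repeats at their promoters, did not pass, at 0.11 and 0.89.

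The remaining lists gave no call in either direction with edgeR. The 5 genes known as targets of active demethylation had a median of -0.08, with AT1G26400 at -0.08 and AT1G62760 at -0.37. The 14 Polycomb targets had a median of -0.11, with the floral repressor FLC at -0.05 and the floral homeotic gene AG at -0.06. The 18 highly transcribed genes had a median of -0.42, the lowest of the lists, beside -0.05 over all genes. RBCS1A and RBCS1B, which encode the small subunit of Rubisco, stood at -0.25 and -0.34. At 9 and 7 counts of RBCS1A in WT ChIP, the 95% interval of its difference ran from -1.14 to 0.63, so that a fall or a rise of moderate size was not detectable at this depth.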

How the data were processed

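Per the labels, chromatin of seedlings was sonicated to about 500 bp, precipitated and sequenced on an Illumina instrument. The deposited table gives raw counts per window, and the submitters' processing notes name Bowtie2, SAMtools and featureCounts with TAIR10. The sources used here give no versions, nor the treatment of duplicates and of reads that align in several places. Copies of a repeat may therefore share reads, and a count may not be a molecule of its own.

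Groups and replicate numbers came from the sample titles. The table had 238296 windows on chromosomes 1 to 5 and 0 columns of other samples. Bins and genes were summed over every second window, so that no place was counted more than once. Gene names and classes came from a RefSeq table of TAIR10.1, whose coordinates are not printed, and all 107 list genes matched. Neighbouring genes share windows, and no strand was used.

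The 4 ChIP libraries alone were fitted in edgeR 4.0.16 (R 4.3.3): filterByExpr, TMM, quasi-likelihood test, two-sided, Benjamini-Hochberg adjustment at 0.05. The script was tested on simulated data. Fold changes are relative to the bulk of windows, which TMM takes as equal. SE was the log2 difference divided by the root of F. Shares were compared by exact permutation. Folds against 0 use a floor of 3 counts per library.

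Named were the 12 highest windows (5 WT ChIP counts or more, not copy-rich), the 6 highest bounds and the 8 lowest windows. The 10 highest and 6 lowest bins and genes, called list members and up to 4 others per list were named too. By rule, windows, bins and genes named as highest or lowest were called and had no overlap between the groups. Members, lists and pericentromere bounds (11 to 18 Mb of chromosome 1, 1 to 7 of 2 and 4, 10 to 17 of 3, 9 to 16 of 5, with the knob at 1.6 to 2.3 of 4 and the insertion at 3.2 to 3.6 of 2) were chosen with earlier results of these data known. Alternatives were other scaling, DESeq2 1.42.0, filters, all 8 libraries, thinning, bin sizes, a fold threshold and leaving out libraries. Figures were drawn with matplotlib 3.10.9 and pandas 2.3.3 in Python 3.11.15. No sequences were used.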

Additional observations from a re-analysis of the deposited data

Results flagged for a closer look

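The input libraries took no part in the comparison. Among the named bins and list genes they differed by over 1 on the log2 scale at 1 locus. Over the gene MBD7 the input of the tagged plants was higher by 2.96 on the log2 scale, and over the bin of 10 kb from 24090001 on chromosome 5, which holds MBD7 and SBT5.4, it was higher by 2.35. Both passed the level of 1 on the log2 scale, which no other named bin or list gene reached. The ChIP differences there were 2.65 and 2.51, and they were not corrected for input. Among the named windows, the intergenic one from 6992001 on chromosome 3 had an input difference of -1.69, on few input counts.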

How the results depend on the processing

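Of the 82 named windows, bins and genes, no called one changed sign under the alternatives run. Uncalled genes did: with all 8 libraries in the fit AT1G26400, FLC and AG stood at 0.0324, 0.0687 and 0.048, with the tagged libraries thinned to the untagged depth ROS1, DME, NRPD2, FWA and RBCS1B stood at -0.343, -0.0541, -0.0103, -0.082 and 0.0449, and with overlapping windows AT1G26400 stood at 0.0566. With 1 library left out at a time, ROS1 ran from -0.0398 to 0.441, AT1G26400 from -0.363 to 0.224, AG from -0.21 to 0.135, FLC from -0.196 to 0.118, FWA from -0.305 to 0.943, NRPD2 from -0.117 to 0.586 and AT1G62760 from -0.648 to 0.0823.

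Leaving out 1 library gave 2722 to 4695 higher and 709 to 1328 lower windows, 1.65% to 9.74% higher and 0.0084% to 3.39% lower bins, 888 to 1644 higher and 74 to 415 lower genes, and arm medians of -0.169 to -0.114. A left-out library leaves 1 sample in its group, which is assumed to vary like the other group. DESeq2's Wald test gave 2854 and 313 windows, 0.563% lower bins and 79 lower genes. All 8 libraries gave 13475 higher windows, 18.4% higher bins, 3320 higher genes and medians of 0.493 in the pericentromeres and -0.03 in the arms. Thinning gave 2307 higher and 1943 lower windows of 28211 tested, and 1.91% lower bins. A threshold of 1.5-fold left 2130 and 226 windows, bins of 50 kb gave 21.9% and 10.6% with medians of 0.486 and -0.079, and library size alone gave an arm median of -0.225 and moved the median of all genes from -0.05 to -0.15. The cause was not tested where it does not follow from fewer libraries, counts or windows. Other alternatives kept these values within 1.5 times or within the spread between libraries.

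The replicate numbers are shared between the groups, but the labels do not say that they pair the libraries, and replicate 1 minus replicate 2 correlated at 0.0707 across 11905 bins. With a replicate block 14.2% of bins were higher and 4.54% lower, and 547 genes were lower. ONSEN-1, not called otherwise in the 4 libraries, passed with the block and with all 8 libraries. Depth limits the windows: 1.98% had 0 counts and 17.6% had 1 to 3 in WT ChIP.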
